A study of Mus musculus with 24 samples.

Results

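Polyamine synthesis and antizyme genes, 8 in all, were followed in primary mouse muscle cells: Odc1, Srm and Sms of the synthesis route, the antizymes Oaz1 and Oaz2, the antizyme inhibitors Azin1 and Azin2, and the catabolic enzyme Sat1. A gene was measured where the array had a transcript cluster, the set of probes assigned to a locus, that carries its symbol and no other, and 7 of the 8 had one, among 22180 genes tested. Sms shares its cluster with a pseudogene symbol and has no value here. A further Oaz1 cluster, shared with an Oaz1 pseudogene, was not used either. For Oaz2, with 2 clusters of its own, the one with the higher mean over all arrays was taken. The clusters were thus chosen by symbol and by mean level over all arrays. The members were also selected on a known result, the lower Azin1 signal of control cultures in limited medium, so the Azin1 values for that medium contrast, and for the one over both diets that contains it, are given as a description with no test.

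The cells came from the quadriceps of ICR mice, were expanded on Matrigel and then differentiated. Control offspring came from dams fed freely, and undernourished offspring from dams whose ration was 50% of what controls ate, starting on day 12.5 of pregnancy, with all mothers fed freely after birth and litters of both kinds evened out to 8 pups. Cultures of each kind stayed in standard differentiation medium (5.5 mM glucose, 2% serum) or spent a night in limited medium (0.5 mM glucose, 1 mM glutamine, 0.5 mM carnitine, 1% serum), so the media differ in serum as well as in substrate. This gave 4 groups of 6 arrays, with each of 12 culture numbers appearing once in each medium. The sources used here give neither the age of the offspring nor what a culture number denotes (an animal, a litter, a flask), so p-values cover only the spread seen among these arrays, which may be partly technical.

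Polyamines are small cations that bind RNA and support translation and growth. Ornithine decarboxylase, the product of Odc1, makes putrescine, and the synthases of Srm and Sms extend it to spermidine and spermine with aminopropyl groups from decarboxylated S-adenosylmethionine. Antizymes bind ornithine decarboxylase, send it to the proteasome without ubiquitin and restrain polyamine uptake. Their translation needs a ribosomal frameshift that polyamines promote. Antizyme inhibitors resemble ornithine decarboxylase but have no decarboxylase activity, and by binding antizyme they set the enzyme free. Sat1 acetylates spermidine and spermine for export or oxidation. Much of this control acts on translation and protein stability, which an mRNA array does not read.

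The cultures carried muscle transcripts. The mean of 15 myotube markers lay between 11.8 and 12.24 on all arrays (log2 signal), that of 8 satellite cell and myoblast markers between 9.37 and 10.0. Undernourished culture 4 in standard medium had the highest mean of both the satellite list (10.0) and the 9 measured cycling-cell genes (7.64, with 5.96 to 6.96 on the other arrays). Cultures 16 and 20 had the highest means of 8 fibroblast markers, 7.95 and 8.21, and of 5 Schwann and glial cell markers, 6.33 and 8.07. The glial mean was 8.04 and 8.11 on the arrays of culture 20 and at most 6.41 on all others. Leukocyte and endothelial markers lay between 5.05 and 5.37.

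In limited medium Azin1 was lower and Srm higher, whereas the transcripts of Odc1, Azin2, both antizymes and Sat1 did not pass the test in any comparison. For Azin1 all 12 cultures had the lower value in limited medium, as 1.24% of all genes did. The control cultures among them carry the result known at selection, so this count and its share only describe Azin1 and are no support. The mean difference of Azin1 was -0.67 ± 0.07 (SE) on the log2 scale over both maternal diets, or 1.59-fold. Srm rose by 0.52 ± 0.13, or 1.43-fold, and was higher in limited medium in 11 of 12 cultures, where 4.43% of all genes were higher in 11 or 12. By limma with Benjamini-Hochberg adjustment over all genes, 1517 genes (6.84%) passed an adjusted p of 0.05 between the media, of which 790 (3.56%) rose and 727 (3.28%) fell. Of the members tested in this contrast, all but Azin1, Srm alone passed. The median difference was 0.02 over the members and 0.0052 over all genes.

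**Figure D1:**
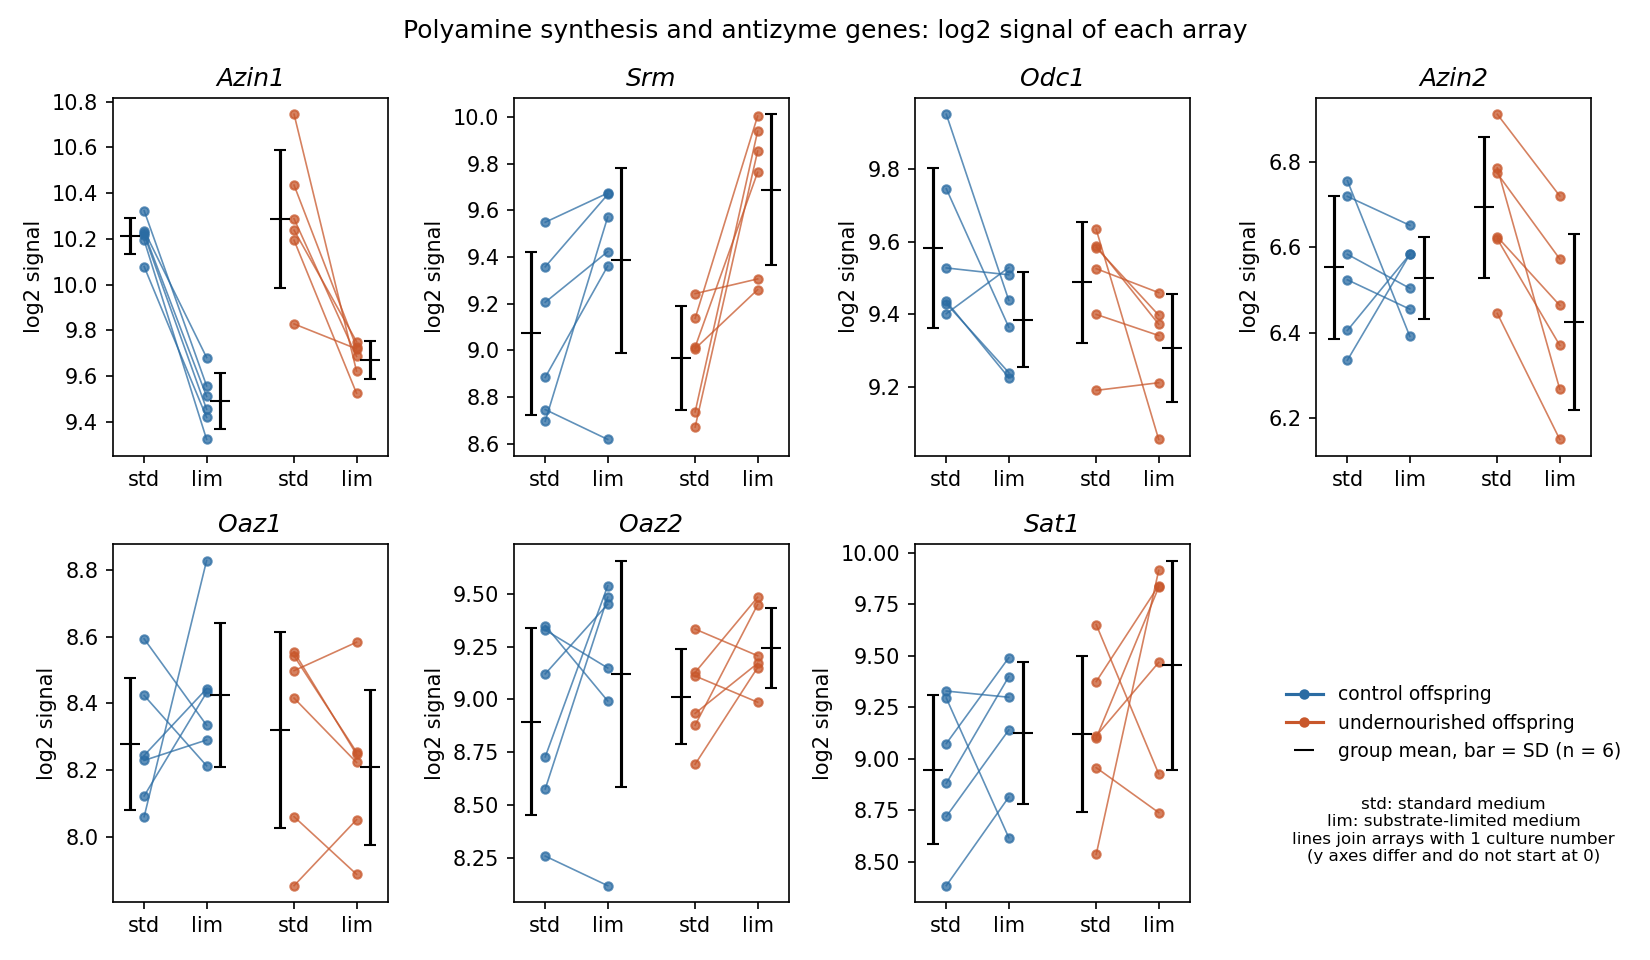
Log2 signal (y axis, scaled per gene) of each array in standard (std) and limited (lim) medium; lines join the arrays of a culture number, blue for control and orange for undernourished offspring, and black marks give the group mean ± SD (n = 6). Azin1 is lower in limited medium along all 12 lines and Srm is higher along 11, while the lines of Oaz1, Oaz2 and Sat1 run both ways.

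Azin1 (cluster 17316700), the antizyme inhibitor found in most tissues, ran from 10.08 to 10.32 in control cultures in standard medium, with a median of 10.22. In limited medium the control arrays ran from 9.32 to 9.68, with a median of 9.48. In undernourished cultures it ran from 9.83 to 10.75 around 10.26 in standard medium and from 9.53 to 9.75 around 9.70 in limited medium. In both maternal diets all limited arrays lay below all standard ones, as was the case for 0.613% of all genes in control and 0.618% in undernourished cultures. Counted in either direction, 1 of 7 members had no overlap between media in control cultures (1.19% of all genes) and 2 of 7 in undernourished ones (1.09%). No member lay wholly higher in limited medium in control cultures, where 0.573% of all genes did. The control difference was -0.72 ± 0.10 (SE), and ranked by size from the lowest it was number 40 of 22180 genes. The lower control signal of Azin1 was known when the members were chosen. Its lack of overlap, the count of 1 of 7 and its rank in control cultures only describe that signal and are no support. At the adjusted threshold 76 genes (0.343%) passed in control cultures, 37 (0.167%) higher and 39 (0.176%) lower.

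In undernourished cultures, whose arrays did not enter the control contrast, Azin1 fell by 0.62 ± 0.10 (SE), or 1.53-fold, with a limma adjusted p of 0.00342. The 95% interval ran from -0.82 to -0.41. At the same threshold 324 genes (1.46%) passed in these cultures, of which 163 (0.735%) fell. This test borrowed its estimate of the spread from all 4 groups. Fitted on the 12 undernourished arrays alone, the difference was the same and the limma adjusted p was 0.0543, so the call ended. The spread of the changes was not compared by a test. Control cultures ran from -0.87 (culture 15) to -0.56 (culture 11). Undernourished ones ran from -1.12 in culture 20, whose standard array was the highest of all, to -0.11 in culture 9, whose standard array was the lowest of the 12 in that medium. The arrays numbered 9 did not deviate from their group means together over all genes (correlation -0.05), so their pairing is uncertain. Without culture 9 the undernourished difference was -0.72, and without culture 20 it was -0.52.

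Srm (cluster 17421694), spermidine synthase, was the member that moved the other way. In control cultures it ran from 8.70 to 9.55 around 9.05 in standard medium and from 8.62 to 9.67 around 9.50 in limited medium. The standard range lay wholly inside the limited one. The control difference of 0.31 ± 0.18 did not pass (limma adjusted p = 0.466). In undernourished cultures it ran from 8.67 to 9.24 around 9.01 in standard medium and from 9.26 to 10.00 around 9.81 in limited medium. Here the groups did not overlap, as held for 0.469% of all genes in this direction, although the highest standard array, of culture 8, and the lowest limited array, of culture 20, almost met. The rise was 0.72 ± 0.18, or 1.65-fold, with a limma adjusted p of 0.0384, and 161 genes (0.726%) rose at this threshold.

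Over both diets the rise of Srm had a limma adjusted p of 0.0124, and it stayed between 0.00431 and 0.0449 when any culture was left out. The call within undernourished cultures was less secure. It was lost without culture 24, 10, 9, 4, 1 or 12 (adjusted p from 0.0531 to 0.175) and when the 12 undernourished arrays were fitted alone (0.0545). The change was over 0.7 in cultures 1, 12, 9, 5 and 4, while in cultures 8, 16, 10, 20, 15 and 24 it lay between 0.06 and 0.48. Control culture 11 was the exception, with -0.13. The pairing of the arrays numbered 9 and 12 is uncertain, as their deviations from group means correlated at -0.05 and 0.02. Beside this result, the myotube marker mean was higher in limited medium in 11 of 12 cultures, with 2 of 15 markers risen (3.56% of all genes). The cycling-cell mean was higher in 2 of 12, with 0 of 9 passed in either direction (6.84% of all genes). Their part in the Srm result was not tested. In bulk samples a change in RNA per cell and a change in the number of cells of a type cannot be told apart.

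Odc1 (cluster 17274294), the decarboxylase that starts the pathway, ran from 9.40 to 9.95 around 9.48 in control standard arrays and from 9.23 to 9.53 around 9.40 in control limited arrays. In undernourished cultures it ran from 9.19 to 9.63 around 9.55 and from 9.06 to 9.46 around 9.36. The media overlapped in both diets, and 10 of 12 cultures were lower in limited medium. The difference over both diets was -0.19 ± 0.07, with a 95% interval from -0.33 to -0.04, and did not pass (limma adjusted p = 0.112). It was -0.20 in control and -0.18 in undernourished cultures, and culture 1 had the lowest change, -0.58.

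Azin2 (cluster 17430288), the second antizyme inhibitor, known mainly from brain and testis, gave a signal between 6.15 and 6.91. Its mean of 6.55 over all arrays was the lowest of the measured members and above that of the median gene, 6.02. It averaged 6.55 ± 0.17 and 6.53 ± 0.10 in control cultures in standard and limited medium, and 6.69 ± 0.16 and 6.42 ± 0.21 in undernourished ones (SD, n = 6). All 6 undernourished cultures were lower in limited medium, by 0.16 to 0.52, though the pairing of cultures 9 and 12 is uncertain. How many of all genes did so was not counted. The difference of -0.27 ± 0.10 in undernourished cultures did not pass (limma adjusted p = 0.179). In control cultures it was -0.03, with 4 of 6 lower.

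The antizymes showed no shared direction. Oaz1 (cluster 17235462), the widely expressed antizyme, averaged 8.28 ± 0.20 in control cultures in standard medium and 8.42 ± 0.21 in limited medium (SD, n = 6). In undernourished cultures the means were 8.32 ± 0.29 and 8.21 ± 0.23. It was higher in limited medium in 6 of 12 cultures. The difference over both diets was 0.02, with a 95% interval from -0.18 to 0.21. The largest change was the 0.77 of control culture 10, where the others ran from -0.31 to 0.31.

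Oaz2 (cluster 17548287), the second antizyme, varied more between cultures than between media. Control standard arrays ran from 8.26 to 9.35 around 8.93 and control limited ones from 8.12 to 9.54 around 9.30. Control culture 15 had the lowest value in both media. Undernourished arrays ran from 8.69 to 9.33 around 9.02 and from 8.99 to 9.48 around 9.19. The difference over both diets was 0.23 ± 0.14, higher in 7 of 12 cultures and not past the threshold (limma adjusted p = 0.392). The dimmer Oaz2 cluster did not show it: the mean change there was -0.005, with 6 of 12 cultures higher.

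Sat1 (cluster 17545595), the acetyltransferase that starts polyamine breakdown, had the widest spread of changes among the members. Control arrays ran from 8.38 to 9.33 around 8.98 in standard medium and from 8.62 to 9.49 around 9.22 in limited medium. Undernourished arrays ran from 8.54 to 9.65 around 9.11 and from 8.74 to 9.92 around 9.65. The media overlapped in both diets. The change ran from -0.72 in culture 20 and -0.68 in culture 16 to 1.38 in culture 12, and 8 of 12 cultures were higher in limited medium. For culture 12 the pairing is uncertain, as the deviations of its arrays from group means correlated at 0.02. The difference over both diets, 0.26 ± 0.15, did not pass (limma adjusted p = 0.362). Cultures 16 and 20, the 2 with falls of this size, were also those with the highest means of the fibroblast and of the Schwann and glial cell markers, whose part in the Sat1 result was not tested. Without both the difference was 0.45, with a limma adjusted p of 0.0691. As these cultures had the lowest Sat1 changes, leaving them out must raise the difference, so this value says nothing about the markers.

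The second question of the design is whether the mother's diet altered these genes. No member passed in either medium. In standard medium the 7 differences, undernourished minus control, ran from -0.11 (Srm) to 0.17 (Sat1), and in limited medium from -0.22 (Oaz1) to 0.33 (Sat1). With the arrays of a culture number averaged, they ran from -0.09 to 0.25. Limma called 0 of 22180 genes (0%) in each of these comparisons, with 697, 1206 and 791 genes at an unadjusted p under 0.05. Both comparisons by medium draw on the same cultures, so they are not separate evidence. For Azin1 the interval ran from -0.13 to 0.28 in standard and from -0.03 to 0.39 in limited medium. Both draw on the control arrays whose difference between media was known at selection. For Azin1 the diet comparisons are therefore not free of that selection. For Sat1 in limited medium the interval reached 0.77.

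**Figure D2:**
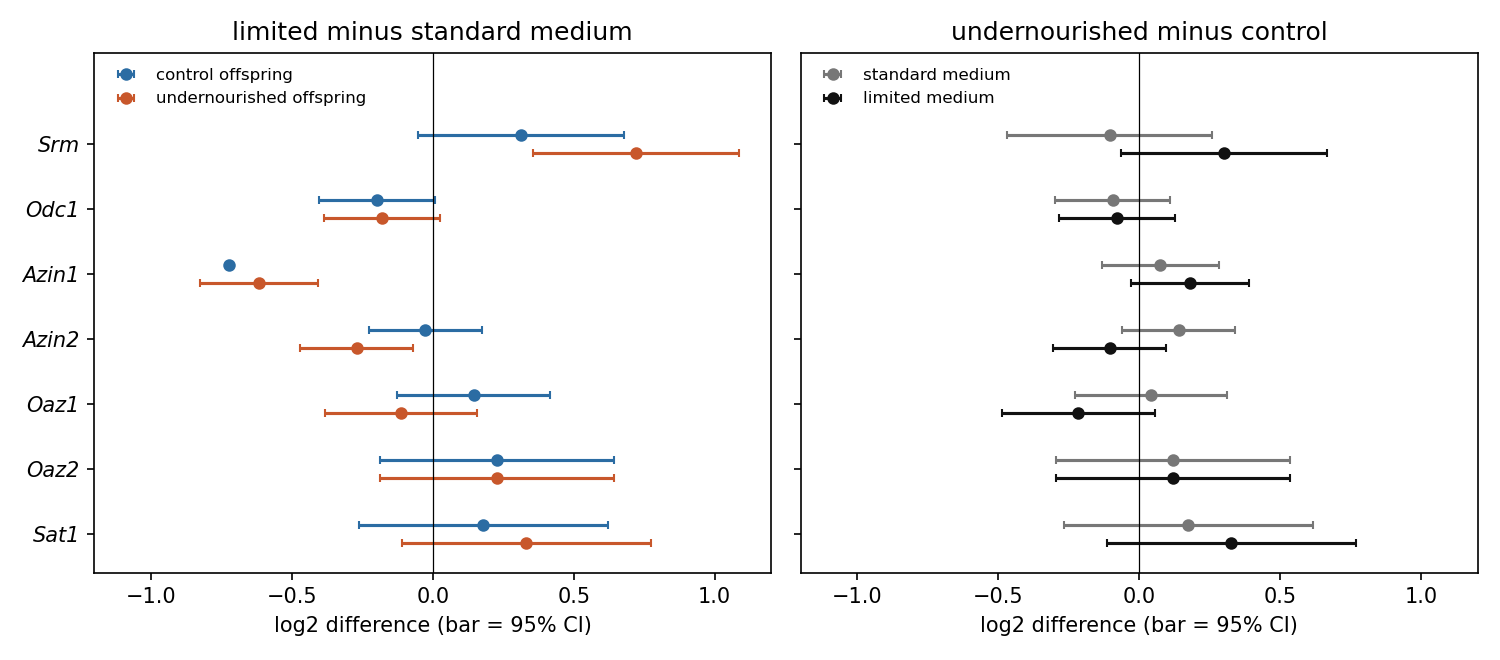
Log2 differences (x axis) with 95% confidence intervals from limma for the 7 measured genes: limited minus standard medium by maternal diet (left) and undernourished minus control by medium (right). Azin1 in control cultures is described only and has no interval, and its intervals on the right use those same control arrays. On the left the interval of undernourished cultures lies wholly below 0 for Azin1 and for Azin2 (the latter not past the adjusted threshold) and wholly above it for Srm; on the right all 14 intervals include 0.

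The response to the medium was also compared between maternal diets directly. For Azin1, where the comparison contains the control difference known at selection, the responses were -0.72 in control and -0.62 in undernourished cultures, with no test. The response of Srm differed by 0.41 ± 0.25 (undernourished minus control, 95% interval from -0.11 to 0.92). It did not pass, with an unadjusted p of 0.117 in the limma fit, and 0 of 22180 genes (0%) were called, with 643 at an unadjusted p under 0.05. So Srm, which passed in undernourished cultures and not in controls, was not shown to respond differently in them. Azin2 (-0.24) and Oaz1 (-0.26) had the largest differences in the other direction, and both intervals included 0.

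**Figure D3:**
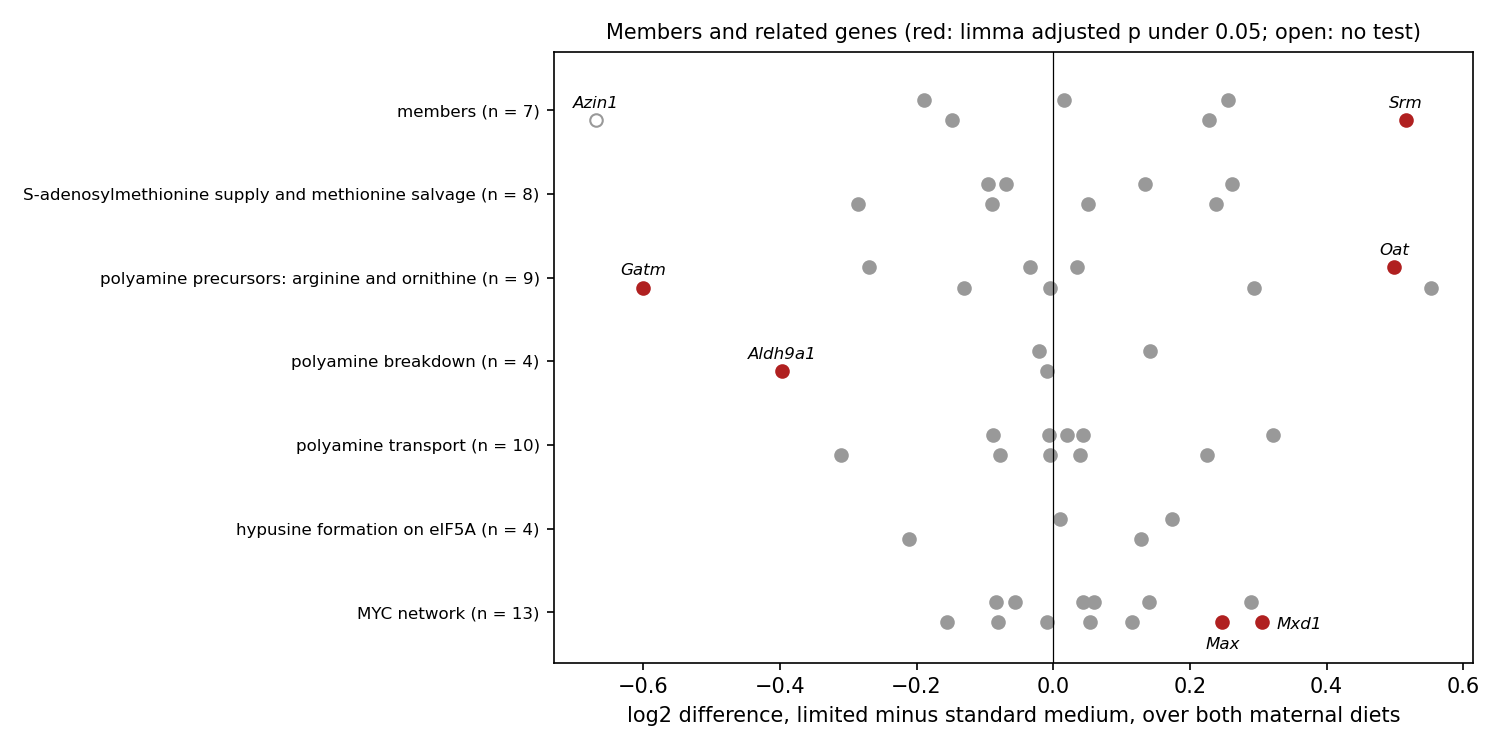
Log2 difference between media over both maternal diets (x axis) for the 7 measured members and for the genes of 6 related lists, 1 point per gene; red points passed a limma adjusted p of 0.05, and the open point, Azin1, is described only. Besides Srm, 2 of 9 precursor genes, 1 of 4 breakdown genes and 2 of 13 MYC network genes passed, against 6.84% of all genes. No gene of the other lists passed (Oaz3, a list of its own, is not drawn).

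Around the members, 7 lists of related genes held 49 measured genes, of which 3 rose and 2 fell with the medium over both diets, against 6.84% of all genes. Their median difference was 0.02. Among 9 genes that supply or use arginine and ornithine, the ornithine aminotransferase Oat, which interconverts ornithine and glutamate semialdehyde, rose by 0.50 ± 0.12 (limma adjusted p = 0.0101), and Gatm, which spends arginine on creatine synthesis, fell by 0.60 ± 0.14 (0.00862). Oat was higher in 10 and Gatm lower in 11 of 12 cultures. Neither gene passed within control or within undernourished cultures alone. The arginine transporter Slc7a1 had the largest positive difference of the list, 0.55 ± 0.19, and did not pass (limma adjusted p = 0.0820). Asl, which makes arginine in the urea cycle, differed by 0.29 (0.0724) and the transporter Slc7a2 by -0.27, neither past the threshold. The arginases Arg1 and Arg2, which form ornithine and are named after their values were seen, differed by -0.03 and -0.01.

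Of 4 breakdown genes, Aldh9a1 fell by 0.40 ± 0.08 over both diets (limma adjusted p = 0.00505). This aldehyde dehydrogenase oxidises aminoaldehydes from polyamines and also serves carnitine synthesis. Its mean went from 6.97 to 6.57 in control and from 7.19 to 6.80 in undernourished cultures. The difference passed in neither diet alone (limma adjusted p = 0.129 in control and 0.104 in undernourished cultures). The spermine oxidase Smox differed by 0.14 and did not pass. Of 11 listed genes of S-adenosylmethionine supply and methionine salvage 8 were measured, and none of these passed. The lowest was Mtap, which recycles the by-product of spermidine and spermine synthesis, at -0.29 ± 0.09 (limma adjusted p = 0.0683). Amd1, which provides the aminopropyl donor, and likewise Amd2 and Mat2a, have no cluster of their own and were not analysed here.

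None of 4 genes of hypusine formation, the modification of the factor eIF5A made from spermidine, passed: Eif5a differed by 0.01 and Dhps, which attaches the spermidine part, by 0.17. None of 10 transport genes passed. The largest differences there were those of Slc3a2, the heavy chain of amino acid exchangers (0.32, limma adjusted p = 0.149), the vesicular polyamine transporter Slc18b1 (-0.31, 0.128) and the glypican Gpc1 (0.23, 0.0970). The antizyme Oaz3, known from testis, differed by 0.04.

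In the MYC network, whose members control Odc1 and Srm in growing cells, Myc itself did not pass (0.29 ± 0.15, limma adjusted p = 0.300, higher in 6 of 12 cultures). Its partner Max rose by 0.25 ± 0.07 (0.0249) and the MYC antagonist Mxd1 by 0.30 ± 0.07 (0.00783), with all 12 cultures higher, as 1.36% of all genes were. The call of Max was lost without culture 15, 11, 10, 4, 1 or 12, with adjusted p from 0.0508 to 0.0744. Max did not pass within control or within undernourished cultures alone. Myc averaged 8.64 and 8.57 in control cultures and 8.34 and 9.00 in undernourished ones, standard medium first. Its response to the medium differed by 0.73 ± 0.31 between diets and did not pass after adjustment (unadjusted p = 0.0269 in the limma fit).

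The genes most like Azin1 were ranked by Pearson correlation of log2 signal over the 24 arrays, leaving out genes dimmer than the median gene. The first 5 were Ap3m1, Hnrnpm, Wdr37, Itfg1 and Tmem175, with coefficients from 0.854 to 0.915. All 5 were lower in limited medium, by 0.31, 0.41, 0.47, 0.38 and 0.58 in that order. The arrays share 2 media and 12 culture numbers, so these coefficients describe the medium difference as much as anything else. When the 12 within-culture changes were ranked instead, Itfg1 and Tmem175 had coefficients of 0.022 and 0.213 with Azin1. The first 5 by this ranking were Hnrnph1, Nup88, Tra2b, Relch and Vps4b (from 0.887 to 0.904). They are the highest of many genes over only 12 changes, with the pairing of cultures 9 and 12 uncertain, so they are a ranking and no test. Over both diets Hnrnph1 and Tra2b passed as lower in limited medium, and Nup88, Relch and Vps4b did not pass. For Odc1 the first 5 over arrays were Pcyox1l, Med19, Chchd5, D130017N08Rik and Egr1 (from 0.735 to 0.841).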

How the data were processed

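Total RNA of 24 samples was hybridised to 1 array each. Per the submitters' processing notes, the deposited values, taken here as log2 signal, were made by RMA in Affymetrix Expression Console. The base of the logarithm was inferred from their range (1.69 to 14.1, array medians 5.60 to 5.81), and this base, tool versions and genome build were not given in the sources used here. Of 41345 clusters, 23521 had 1 symbol in the platform annotation, updated by Entrez identifier through RefSeq (GRCm38.p6; 23328 matched), 1814 had several and 16010 none. The highest-mean cluster stood for each of 22180 genes, with no filter on dim genes. Limma 3.58.1 (R 4.3.3; lmFit, eBayes) was fitted on 4 groups with Benjamini-Hochberg adjustment, two-sided, threshold 0.05; errors are SE of differences and SD of levels. For the maternal diet over both media, culture means were compared, 6 against 6. On simulated data with 22180 genes, the fit recovered 80% of changes of 0.5 for the medium over both diets and 54% and 44% within control and undernourished cultures. The simulated arrays were independent, with no effect of culture number and fewer changed genes than were called over both diets. Recovery in the real data may therefore differ. Precision is limited by the number of arrays, and detection calls were not used. The members and gene lists were chosen with earlier results of these data known. All 7 measured members are named in every comparison; of each related list, called genes and up to 4 with the largest differences may be named, and any other was chosen after its values were seen. Alternatives were the culture number as a block, leaving out each culture or cultures 16 and 20, array weights, quantile normalization, a level filter, averaged clusters, the second title number as covariate, trended robust eBayes, only the groups compared, and other thresholds.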

Additional observations from a re-analysis of the deposited data

Results flagged for a closer look

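Srm in control culture 11 was the lowest of the 6 control arrays in limited medium, at 8.62, where the nearest array had 9.36; the gap was 0.703 of the group's range, above the limit of 0.625. Of 42 groups of 6 values tested for a sample far from the others, 1 met this limit, and chance alone gives about 1 in 20.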

How the results depend on the processing

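Of 1106 member values under the alternatives, 1061 kept direction and side of the threshold, 8 lost the call and 37 changed sign, over 13 uncalled differences of at most 0.15 in size. These counts include the Azin1 contrasts that are described with no test, so for those they give no support. In undernourished cultures 2 of 7 members were called, against 1.46% of all genes, from 1 to 2 leaving out 1 culture, and 0 fitting only the groups compared. Deviations from group means of arrays with the same number correlated from -0.05 to 0.56, over 0.1 in 10 of 12 pairs and best with the own number in 10, a hint of pairing. The 2 pairs not over 0.1 were those of culture 9 (-0.05) and culture 12 (0.02). Because of these pairs, and as the labels do not say what a number denotes, the main fit has no block. With the replicate block, 2597, 551 and 1007 of all genes were called for the medium over both diets, in control and in undernourished cultures, against 1517, 76 and 324. The calls of the tested members, Srm over both diets and Srm and Azin1 in undernourished cultures, did not change.

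In the same order, 2325, 253 and 622 genes were called at an adjusted p under 0.1, and 267, 47 and 192 with a difference of at least 0.5. Leaving out 1 culture gave from 991 (without 5) to 1603, with 996 without 4; from 10 (without 5) to 162 (without 20), with 13, 20, 24, 30, 35, 49 and 50 without 10, 15, 16, 11, 12, 24 and 8; and from 51 (without 4) to 469, with 75, 89, 115 and 214 without 12, 1, 9 and 10. Control cultures had 115 without cultures 16 and 20, 275 with array weights and 149 at or above the median level; undernourished ones 494, 571 with array weights and 59 fitting only the groups compared. For the diet in limited medium 2 genes, no members, were called without culture 20, 2 without 16 and 20 and 1 with weights, against 0.

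After quantile normalization Oaz1 was -0.00023 for the medium over both diets and Azin2 0.038 in control cultures. Without cultures 16 and 20, Odc1 was 0.038 for the diet in standard medium, Azin2 -0.033 for the diet over both media, and Odc1 -0.087 and Oaz2 -0.16 for the difference of medium effects; Oaz2 was -0.073 there with weights and -0.012 with averaged clusters. Leaving out 1 culture, Oaz1 ran from -0.046 to 0.056 for the medium over both diets and Azin2 from -0.081 to 0.042 in control cultures. For the diet in standard medium Azin1 ran from -0.016 to 0.17, Oaz1 from -0.0046 to 0.14 and Oaz2 from -0.0081 to 0.21, and in limited medium Oaz2 from -0.081 to 0.20. Over both media Azin2 ran from -0.034 to 0.070, Oaz2 from -0.045 to 0.17 and Srm from -0.011 to 0.17. For the difference of medium effects Odc1 ran from -0.046 to 0.10, Oaz2 from -0.12 to 0.14 and Sat1 from -0.057 to 0.36. The cause was not tested.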
